A study of Mus musculus with 6 samples.

Results

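Transcripts of 10 genes of tumor necrosis factor (TNF) and NF-kappaB signaling were examined in mouse ear skin at the tick bite site. They were Tnf, its receptors Tnfrsf1a and Tnfrsf1b, the NF-kappaB subunit genes Nfkb1, Nfkb2 and Rela, the inhibitor and feedback genes Nfkbia, Nfkbiz and Tnfaip3, and the ubiquitin ligase gene Birc3. The genes were chosen by symbol, and each had 1 row among the 15667 genes of the expression table. The values were counts per 1000000 reads (CPM), and all 10 genes passed a filter at a mean of at least 1 CPM, which left 14306 genes to test. RNA-seq was done on bitten ears of female littermates of the B6;129-Adipoq tm1Chan/J line, 7 to 8 weeks old. WT mice (Adipo+/+, n = 3) had an intact gene for adiponectin, a hormone of fat cells, and KO mice (Adipo-/-, n = 3) were homozygous for its null allele in all tissues. The libraries are called WT1 to WT3 and KO1 to KO3 by genotype and replicate number, and lists of values follow that order. Every mouse of both groups had been exposed to 10 nymphs of Ixodes scapularis, and 1 punch of 3.5 mm was taken from the ear after 48 hours, so that tick feeding was shared by all libraries. Unbitten skin was not analysed here, and the comparison therefore asked how the genotypes differed in bitten skin.

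TNF is an inflammatory cytokine made in skin mainly by macrophages, mast cells, T cells and keratinocytes. Its receptors activate the IKK kinases, which mark the inhibitor IkappaB-alpha (Nfkbia) for degradation, so that NF-kappaB dimers such as the product of Nfkb1 with that of Rela enter the nucleus. NF-kappaB then induces genes that end its own activity, among them Nfkbia and Tnfaip3, and RNA of these feedback genes is often read as a sign of recent NF-kappaB activity.

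The libraries held 3403707 to 6591523 implied reads, and 3 reads were worth 0.455 to 0.881 CPM. Adipoq, the targeted gene, was at 30.5 to 63.7 CPM in the WT libraries and had 0, 2 and 0 implied reads in the KO libraries, so each label matched its library. Epidermal keratinocyte markers summed to 33132 to 51670 CPM in all 6 libraries. Hair follicle markers set libraries apart within the WT group. Their sum was 13.8 and 20.3 CPM in WT1 and WT2 but 23071 CPM in WT3, against 966 to 9192 CPM in KO. Values are therefore also given below without WT1 or WT3 where these decided a result. In bulk skin, fewer cells of a type and less RNA per cell cannot be told apart.

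Across the 10 genes, the values of Nfkbia and Tnfaip3 were lower in KO skin, at 0.676 times (95% interval 0.464 to 0.983) and 0.688 times (0.490 to 0.965) the WT level, at an unadjusted p below 0.05. Neither passed the adjustment over all genes. Of the 10 genes, 2 were lower at an unadjusted p below 0.05, where 1.82% of all genes tested were, and 0 were higher, where 1.06% were. After Benjamini-Hochberg adjustment with limma 0 of the 10 genes passed (adjusted p = 0.998 for each), and 0.014% of all genes did. With limma voom on the implied reads 1 of the 10 was lower at an unadjusted p below 0.05, and 0 passed after adjustment. The KO values overlapped the WT values in all 10 genes, whereas all KO values lay below all WT values in 4.89% of the genes tested and above them in 2.95%. The log2 fold change of KO against WT was negative for 7 of the 10 genes and positive for 3. Its median was -0.15 over the 10 genes and -0.03 over all genes tested, 56.7% of which had a negative value. The middle 50% of all genes lay between -0.17 and 0.10, a spread of single genes that does not show how medians vary. The median of the 10 genes fell inside this range. That median was -0.31, outside it, when WT3 was left out, -0.06 without WT1, -0.08 without WT2 and -0.02 with a covariate for hair follicle markers. Over all genes 260 were lower and 152 higher at an unadjusted p below 0.05, a balance that became 215 and 210 with median-of-ratios rescaling and 193 and 232 with quantile normalization. The count of 2 among the 10 genes became 1 with median-of-ratios rescaling and 0 with quantile normalization, without the limma trend or with the hair follicle covariate. It also changed with single libraries. Leaving out WT1, WT2 or KO3 gave 0, leaving out KO1 or KO2 gave 1, and leaving out WT3 gave 4.

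**Figure D1:**
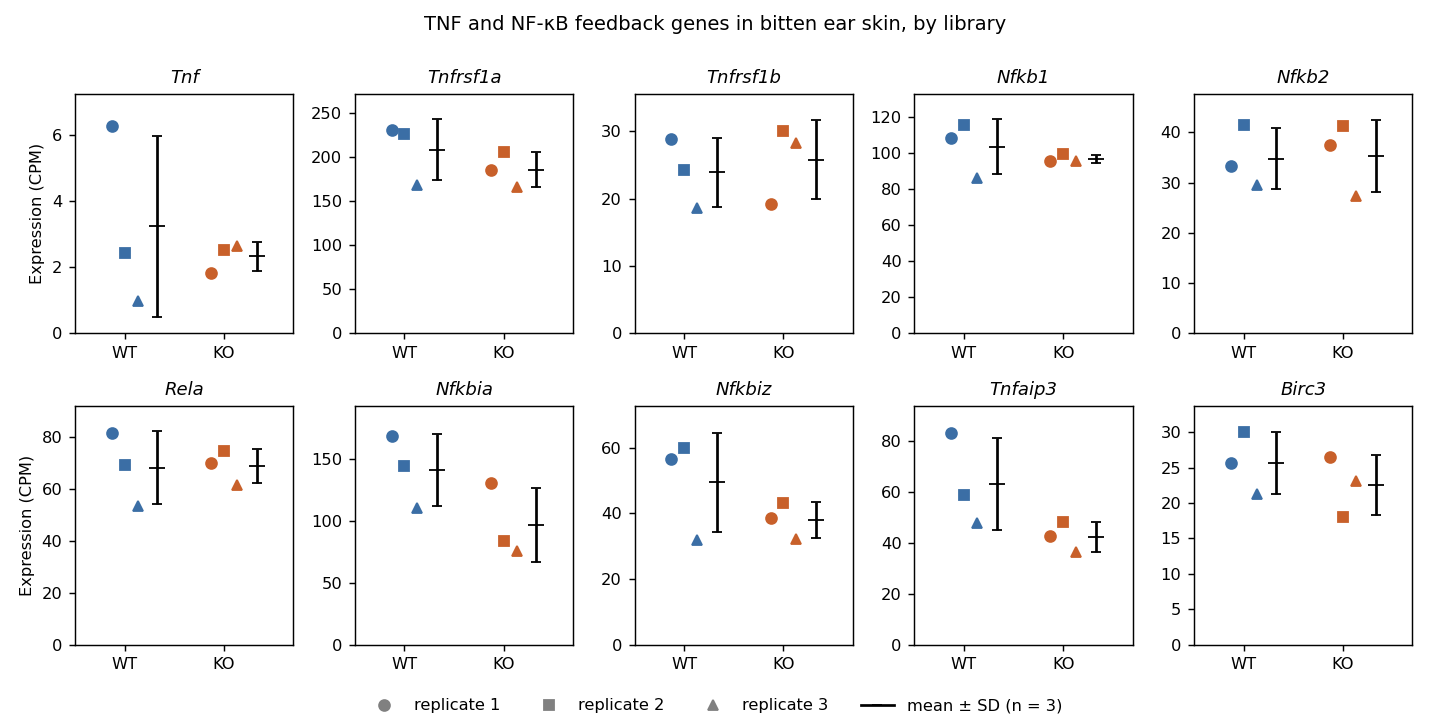
Expression of the 10 genes in CPM (vertical axes, from 0) in each WT (blue) and KO (orange) library, with symbols for the replicate number and black bars for the mean ± SD of 3 libraries. WT3 (blue triangle) is the lowest WT library in all 10 panels, and the groups overlap in each.

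The ligand was examined first. Tnf (chromosome 17, 35199367 to 35202007, minus strand; GRCm38, as are all positions here) had the least RNA per length of the 10 genes. Its level was 6.29 CPM in WT1, 2.44 in WT2 and 0.989 in WT3, against 1.82, 2.52 and 2.64 CPM in KO1, KO2 and KO3. The WT libraries enclosed the KO libraries, which lay close together. Group means were 3.24 ± 2.74 (WT) and 2.33 ± 0.445 CPM (KO; SD, n = 3 each), and the log2 fold change was -0.14 (SE 0.55, 95% interval -1.41 to 1.12). These levels rested on 6 to 26 implied reads per library. The 95% Poisson interval, which covers counting error only, was 4.11 to 9.22 CPM in WT1 and 0.363 to 2.15 CPM in WT3, so the spread among WT libraries exceeded counting error. The log2 fold change of Tnf moved to 0.42 when WT1 was left out and to -0.67 when WT3 was, neither at an unadjusted p below 0.05. The neutrophil markers had the same order as Tnf among the WT libraries and the reverse order among the KO libraries. Of 10 such markers 9 were measured, none was at 0 in all libraries, and their sum was 619, 202 and 57.0 CPM in WT1, WT2 and WT3 and 221, 120 and 115 CPM in KO1, KO2 and KO3. Their part in the spread of Tnf was not tested.

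Next, both TNF receptors were compared. Tnfrsf1a (chromosome 6, 125349723 to 125362483, plus strand) encodes TNF receptor 1, which most cell types carry and which signals through a death domain. The WT libraries held 229.9, 225.4 and 168.2 CPM of it, and the KO libraries 185.1, 205.4 and 165.4 CPM. The lowest WT and the lowest KO library were thus nearly equal. Means were 208 ± 34.4 and 185 ± 20.001 CPM (SD, n = 3 each), with a log2 fold change of -0.16 (SE 0.15, 95% interval -0.50 to 0.19). Tnfrsf1b (chromosome 4, 145212368 to 145246870, minus strand) encodes TNF receptor 2, found chiefly on leukocytes and endothelial cells. Its values were 28.8, 24.2 and 18.6 CPM (WT) and 19.1, 30.0 and 28.2 CPM (KO). KO1 was at the level of the lowest WT library, and KO2 and KO3 were at that of the highest. The log2 fold change was 0.10 (SE 0.23, 95% interval -0.43 to 0.64), from means of 23.9 ± 5.10 (WT) and 25.8 ± 5.83 CPM (KO; SD, n = 3 each). When WT3 was left out, Tnfrsf1a had a log2 fold change of -0.30 at an unadjusted p below 0.05 and Tnfrsf1b one of -0.06. For Tnfrsf1a it was nearer to 0 without WT1 (-0.08), WT2 (-0.09) or KO3 (-0.08) and with the hair follicle covariate (-0.06).

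The genes of the NF-kappaB subunits had the log2 fold changes nearest to 0. Rela (chromosome 19, 5637541 to 5648134, plus strand) encodes the subunit with the main transactivation domain of the canonical dimer. Rela was measured at 81.8, 69.4 and 53.6 CPM (WT) and 70.1, 74.5 and 61.7 CPM (KO). The KO values lay within the WT range, with means of 68.3 ± 14.1 and 68.8 ± 6.52 CPM (SD, n = 3 each). Nfkb1 (chromosome 3, 135584655 to 135691547, minus strand) encodes a precursor that is processed to the partner of Rela. Its values were 108, 116 and 86.2 CPM (WT) and 95.3, 99.2 and 95.8 CPM (KO), again inside the WT range. Nfkb2 (chromosome 19, 46304737 to 46312090, plus strand) encodes the precursor of the alternative pathway. Values of 33.4, 41.5 and 29.5 CPM (WT) and 37.5, 41.2 and 27.3 CPM (KO) were found, so that in each group replicate 2 was highest and replicate 3 lowest. The log2 fold changes were 0.03 for Rela (95% interval -0.36 to 0.42), -0.09 for Nfkb1 (-0.38 to 0.21) and 0.01 for Nfkb2 (-0.44 to 0.47). These intervals left room for differences of either sign, and the estimates changed sign when a single library was left out (WT3 or KO2 for Rela, WT2 for Nfkb1, and WT1, WT3, KO1 or KO2 for Nfkb2). The rows of 4833438C02Rik and Psd overlap that of Nfkb2, and the sources used here do not say whether counting used read strand, so these genes could share reads.

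The inhibitor and feedback genes held the lower values in KO skin. Nfkbia (chromosome 12, 55489409 to 55492647, minus strand) encodes IkappaB-alpha, which keeps NF-kappaB dimers in the cytoplasm and is quickly resynthesized after their activation. It reached 168 CPM in WT1, 145 in WT2 and 110 in WT3, against 131 CPM in KO1, 83.5 in KO2 and 75.2 in KO3. KO2 and KO3 were below all WT libraries, and KO1 lay between WT2 and WT3. The means were 141 ± 29.4 (WT) and 96.5 ± 30.1 CPM (KO; SD, n = 3 each). The log2 fold change was -0.57 (SE 0.23, limma unadjusted p = 0.0425, adjusted p = 0.998), and the exact permutation test gave p = 0.2, where 3 against 3 libraries cannot give less than 0.1. Nfkbia was lower in KO in 16 of 16 alternative analyses (log2 fold change -0.81 to -0.41), in 7 of them at an unadjusted p below 0.05. The analyses reused the same libraries. Changes of filter, trend or replicate block kept the same estimate, so its sign could not change in them. The 7 were the changes of pseudocount and filter, the replicate block, and leaving out WT3 or KO1. Leaving out WT1 (-0.43), WT2 (-0.54), KO2 (-0.48) or KO3 (-0.41) took the p above 0.05.

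Tnfaip3 (chromosome 10, 19000910 to 19015410, minus strand) encodes a ubiquitin-editing enzyme that dismantles the ubiquitin chains on which TNF receptor signaling is built. Its level was 83.0 CPM in WT1, 58.6 in WT2 and 47.8 in WT3, and 42.6 CPM in KO1, 48.2 in KO2 and 36.4 in KO3. The overlap was narrow, with KO2 just above WT3. Means were 63.1 ± 18.0 and 42.4 ± 5.89 CPM (SD, n = 3 each), and the log2 fold change was -0.54 (SE 0.21, limma unadjusted p = 0.0342, adjusted p = 0.998; exact permutation p = 0.2). In 16 of 16 alternative analyses Tnfaip3 was lower in KO (log2 fold change -0.72 to -0.33), in 9 of them at an unadjusted p below 0.05. As for Nfkbia, the analyses reused the same libraries, and several kept the same estimate. The 9 were the changes of pseudocount and filter, median-of-ratios rescaling, limma voom, the replicate block, and leaving out WT3 or KO2. The p was above 0.05 when WT1 (-0.33), WT2 (-0.57), KO1 (-0.55) or KO3 (-0.44) was left out.

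Nfkbiz (chromosome 16, 55811377 to 55838641, minus strand) encodes IkappaB-zeta, a nuclear member of the inhibitor family that is needed for part of the inflammatory response of keratinocytes. Its values were 56.4, 59.8 and 31.98 CPM (WT) and 38.5, 43.2 and 32.02 CPM (KO). WT1 and WT2 were above all KO libraries, and WT3 and KO3 were level. With means of 49.4 ± 15.2 and 37.9 ± 5.59 CPM (SD, n = 3 each), the log2 fold change was -0.34 (SE 0.25, 95% interval -0.91 to 0.23). With WT3 left out it was -0.62, at an unadjusted p below 0.05, but it was -0.17 without WT2, -0.22 without WT1 or KO3 and -0.13 with the hair follicle covariate. A list of immediate early genes, which encode transcription factors and signal regulators induced within minutes of a stimulus, had a summed level that did not overlap between the groups. The sum was 2459 to 2784 CPM (WT) and 1721 to 2354 CPM (KO), with a narrow gap between WT3 and KO1. Among single genes tested, all KO values lay below all WT values in 4.89%. Of the 15 genes listed 14 were tested. At an unadjusted p below 0.05, 7 of these 14 were lower in KO, where 1.82% of all genes tested were. None of the 14 immediate early genes was at 0 in all libraries. Their part in the difference of Nfkbia and Tnfaip3 was not tested.

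Promoter sequences of both genes that were lower at an unadjusted p below 0.05 are shown beside that of Rela, which was not. Windows from 250 bases before to 50 after a gene start were taken from RefSeq (GRCm38.p6). The set used held windows for 8 of the 10 genes and none for Nfkb1 and Nfkbiz. The NF-kappaB consensus, a 10-base motif known by that name, was searched on both strands. Printed are the last 130 bases before the gene start, 5′ to 3′ on the strand of the gene, with matches in capitals. The positions are chr12:55492648-55492777 (minus strand) for Nfkbia, chr10:19015411-19015540 (minus strand) for the first of the Tnfaip3 windows, and chr19:5637411-5637540 (plus strand) for Rela.
Nfkbia: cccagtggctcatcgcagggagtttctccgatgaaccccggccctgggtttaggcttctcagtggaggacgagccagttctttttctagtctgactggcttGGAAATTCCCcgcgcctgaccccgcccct
Tnfaip3: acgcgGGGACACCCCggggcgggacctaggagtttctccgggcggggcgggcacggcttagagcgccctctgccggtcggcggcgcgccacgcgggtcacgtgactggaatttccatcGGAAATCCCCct
Rela: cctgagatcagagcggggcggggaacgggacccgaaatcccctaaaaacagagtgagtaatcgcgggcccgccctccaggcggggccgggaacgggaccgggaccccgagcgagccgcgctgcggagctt
The match in Nfkbia began 29 bases before the gene start, and those in Tnfaip3 began 125 and 12 bases before it. Nfkb2, with a log2 fold change of 0.01, also held matches in each of its 3 windows. No match was found in the windows of Tnf, Tnfrsf1a, Tnfrsf1b, Rela and Birc3 or in the second window of Tnfaip3. Of 32851 windows of the same length, 4.51% held a match and 0.554% held 2 or more. A match is a description of letters, and no binding was measured here.

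Birc3 (chromosome 9, 7848701 to 7873170, minus strand) encodes a ubiquitin ligase of the TNF receptor complex and is itself an NF-kappaB target. Its values were 25.7, 30.1 and 21.3 CPM (WT) and 26.5, 18.0 and 23.0 CPM (KO). The highest library was a WT library and the lowest a KO library, with the others intermixed. The log2 fold change was -0.19 (SE 0.20, 95% interval -0.65 to 0.27), from means of 25.7 ± 4.42 (WT) and 22.5 ± 4.27 CPM (KO; SD, n = 3 each). It was -0.04 without KO2, -0.07 without WT2, -0.05 with the hair follicle covariate, and -0.31 without WT3 or KO1.

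**Figure D2:**
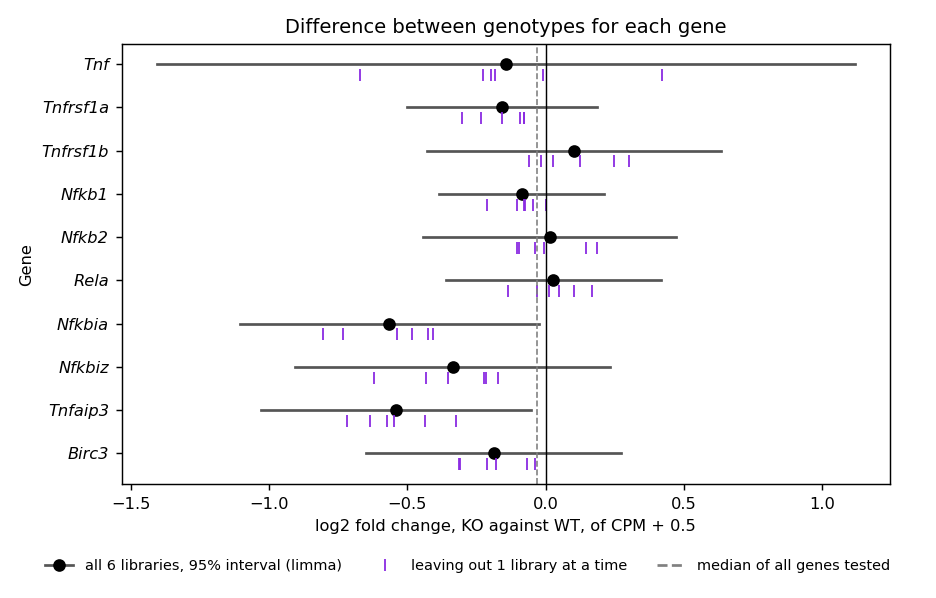
Log2 fold change of KO against WT for each gene (black points) with its 95% limma interval (grey lines), and the values after leaving out 1 library at a time (purple ticks); the dashed line is the median of all genes tested, -0.03. The intervals of Nfkbia (-1.11 to -0.02) and Tnfaip3 (-1.03 to -0.05) end below 0, and the other 8 intervals include 0.

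Levels were then compared between the genes as CPM per kilobase of exon, averaged over the 6 libraries. Tnfrsf1a (75.9 CPM per kilobase, 63.8 to 88.7 over libraries) and Nfkbia (73.8, 46.7 to 104.6) had the most RNA per length, and their ranges overlapped. Rela followed at 22.3 CPM per kilobase (17.4 to 26.6), clear of both. Nfkbiz (8.70), Nfkb1 (8.30), Nfkb2 (7.65), Tnfaip3 (7.30), Tnfrsf1b (6.50), Birc3 (4.81) and Tnf (1.699) came next, and the ranges of neighbours in this order overlapped. The transcript of TNF receptor 1 thus exceeded that of the ligand by far in every library, since the highest Tnf level per kilobase was 3.84. The level of Nfkbia per kilobase was 87.6 ± 18.3 (WT) and 60.0 ± 18.7 (KO; SD, n = 3 each).

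Because the scaling of a library cancels in a ratio, the inhibitor and feedback genes were also expressed relative to Rela within each library. The log2 ratio of Nfkbia to Rela was 1.04 in WT1, 1.06 in WT2 and 1.04 in WT3, but 0.90 in KO1, 0.16 in KO2 and 0.29 in KO3. The WT libraries were nearly identical, although Nfkbia itself differed among them from 110 to 168 CPM. For Tnfaip3 the log2 ratio was 0.02, -0.24 and -0.16 (WT) and -0.72, -0.63 and -0.76 (KO). Nfkbiz gave log2 ratios of -0.54, -0.21 and -0.74 (WT) and -0.86, -0.79 and -0.95 (KO). All KO ratios were below all WT ratios for each of these 3 genes, as they were for 2.97% of the 14306 genes when set against Rela. The differences of the means, KO less WT on the log2 scale, were -0.60, -0.57 and -0.37, and no test was made of them. The separation depended on the gene in the denominator. With Nfkb1 in place of Rela the difference was -0.48 for Nfkbia, -0.46 for Tnfaip3 and -0.25 for Nfkbiz, and only the Tnfaip3 ratio did not overlap between the groups. With Nfkb2 the differences were -0.58, -0.56 and -0.35, and again only that of Tnfaip3 did not overlap. The gap against Nfkb1 was narrow, with log2 ratios of -0.98 in WT2 and -1.04 in KO2. How many of all genes separate against Nfkb1 or Nfkb2 was not counted. Leaving out KO1, the KO library with the highest ratio of Nfkbia to Rela, moved that difference to -0.82. Leaving out WT2 moved the difference of Nfkbiz to -0.23.

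**Figure D3:**
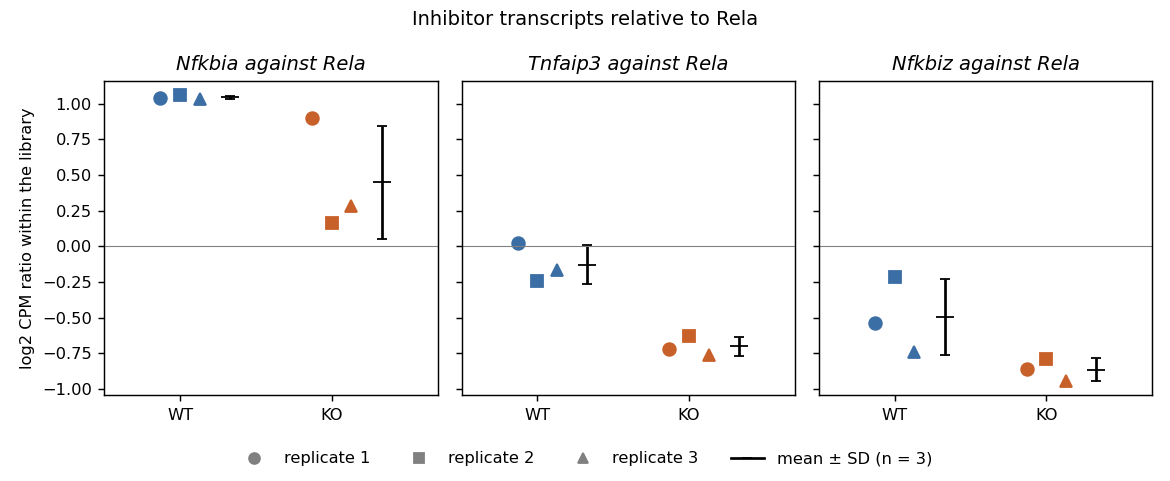
Log2 ratio of the CPM of Nfkbia, Tnfaip3 and Nfkbiz to that of Rela (vertical axis) in each WT (blue) and KO (orange) library, with black bars for the mean ± SD of 3 libraries. The WT ratios of Nfkbia lie between 1.04 and 1.06, and in all 3 panels each KO library is below each WT library.

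A pattern shared by all 10 genes lay between libraries of 1 genotype. WT3 had the lowest of the 3 WT values in 10 of the 10 genes, as it had in 36.6% of all genes tested. The highest WT value was in WT1 for 6 of the genes and in WT2 for 4. Over all 6 libraries the lowest value was in WT3 for 5 genes, in KO3 for 4 and in KO2 for 1. Of 19 inflammatory targets of NF-kappaB that were tested (of 23 listed), 18 were also lowest among WT libraries in WT3, and 16 were highest of all 6 libraries in WT1, as 18.0% of all genes were. Their differences between libraries were wide, and the median log2 fold change of KO against WT of these targets was -0.25, with a range of -1.33 to 0.54. It was 0.23 without WT1 and -0.67 without WT3. Of the 19 targets 0 were lower and 0 higher in KO at an unadjusted p below 0.05 with limma. Sod2, the mitochondrial superoxide dismutase and the target of highest CPM, was at 129 ± 31.1 (WT) and 108 ± 15.0 CPM (KO; SD, n = 3 each; log2 fold change -0.25). Its log2 fold change was -0.06 without WT1, -0.37 without WT3 and -0.14 without KO3.

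**Figure D4:**
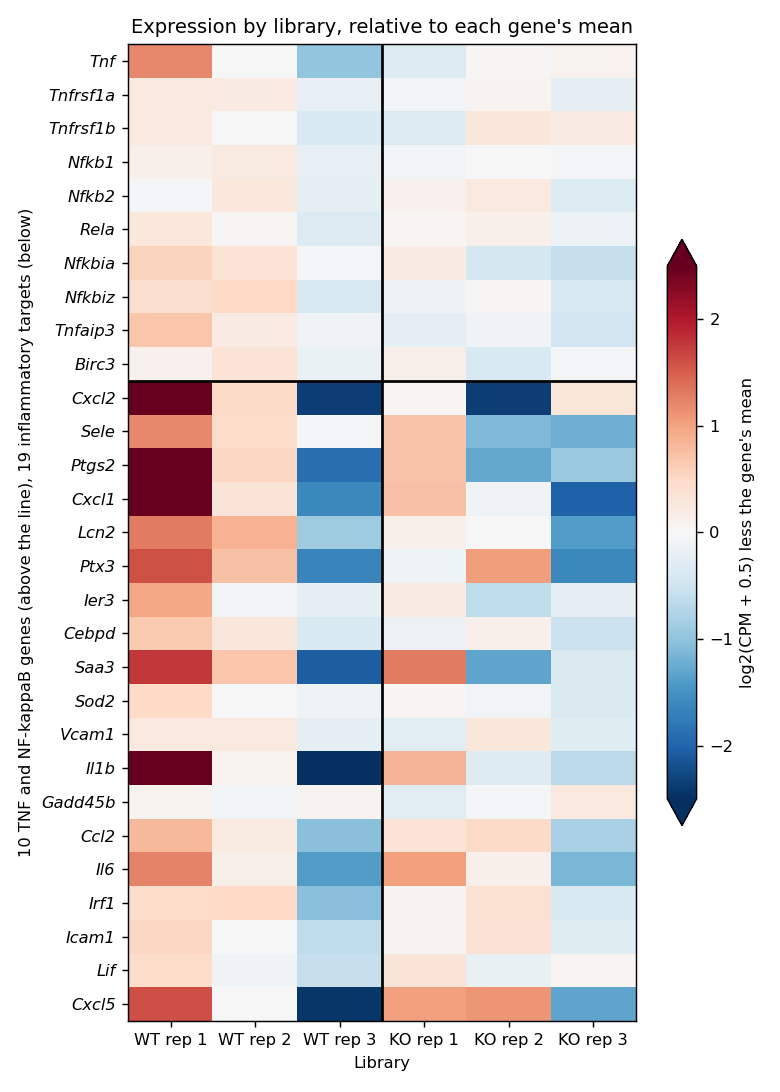
Log2(CPM + 0.5) less the mean of each gene (color; values beyond 2.5 in either direction have the end color) for the 10 genes (above the line) and 19 inflammatory targets (below) in the 3 WT and 3 KO libraries (columns). WT1 is the highest library for 16 of the 19 targets, and WT3 is the lowest WT library for 18 of them and for all 10 genes above the line.

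Finally, the rest of the pathway was described from a list of 87 genes in 7 roles. Of these, 76 were tested, 7 were too low and 4 had no row under their symbol among the 15667 genes. At an unadjusted p below 0.05, 2 of the 76 were lower in KO, where 1.82% of all genes tested were. None was higher, where 1.06% of all genes were, and 0 of the 76 passed the adjustment with limma. Of these genes 40 had a negative and 36 a positive log2 fold change, with a median of -0.03. All KO values lay below all WT values in 3 of the 76, where they did in 4.89% of all genes tested. Both genes at this threshold were among these 3. Tnfrsf11b (chromosome 15, 54250619 to 54278484, minus strand) encodes osteoprotegerin, a soluble decoy receptor that binds RANKL. Its level was 10.4, 13.8 and 14.7 CPM (WT) and 4.85, 7.29 and 7.64 CPM (KO), with a log2 fold change of -0.94 (SE 0.25, limma unadjusted p = 0.00609, adjusted p = 0.998). The unadjusted p stayed below 0.05 in 16 of 16 alternative analyses (log2 fold change -1.08 to -0.74). These analyses reused the same libraries and were not independent of each other. Zfp36l1 (chromosome 12, 80107760 to 80113013, minus strand) encodes an RNA-binding protein that destabilizes AU-rich messenger RNAs. Its means were 253 ± 6.78 (WT) and 217 ± 3.76 CPM (KO; SD, n = 3 each), with a log2 fold change of -0.22 (SE 0.09, limma unadjusted p = 0.0358, adjusted p = 0.998), and the call was kept in 7 of 16 alternative analyses. Leaving out any 1 library except WT1 took its p above 0.05, with log2 fold changes of -0.23 to -0.19.

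The remaining roles were described by their counts and medians, and apart from Tnfrsf11b and Zfp36l1 none of their genes reached an unadjusted p below 0.05. Of 20 receptor adaptors and kinases, 9 were negative and 11 positive with a median log2 fold change of 0.02, and Tab2, which links ubiquitin chains to the kinase TAK1, had the highest CPM of them at 175 ± 13.4 (WT) and 178 ± 1.48 CPM (KO; SD, n = 3 each). All 5 genes of the IKK kinases had a positive log2 fold change, where 56.7% of all genes tested had a negative one. The values ran from 0.0012, which is next to no difference, to 0.27. Their median was 0.10, and 0 were at an unadjusted p below 0.05. Ikbkg, the regulatory subunit, was at 44.2 ± 3.84 (WT) and 47.4 ± 1.45 CPM (KO; SD, n = 3 each). The 6 other NF-kappaB and IkappaB genes had a median of -0.10. Among them Rel, a subunit prominent in lymphocytes, was at 82.8 ± 10.7 (WT) and 91.6 ± 7.06 CPM (KO; SD, n = 3 each). The 12 negative regulators, which include Zfp36l1, had a median of 0.01. Of 12 further TNF receptors 8 were negative and 4 positive, and Ltbr, the lymphotoxin beta receptor, had the highest CPM of them at 51.9 ± 7.80 (WT) and 55.3 ± 8.49 CPM (KO; SD, n = 3 each). Of the 9 further TNF ligands 2 were tested, 4 were too low and 3 had no row under their symbol. Tnfsf12, the ligand TWEAK, was at 7.30 ± 2.55 (WT) and 7.62 ± 1.77 CPM (KO; SD, n = 3 each).

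**Figure D5:**
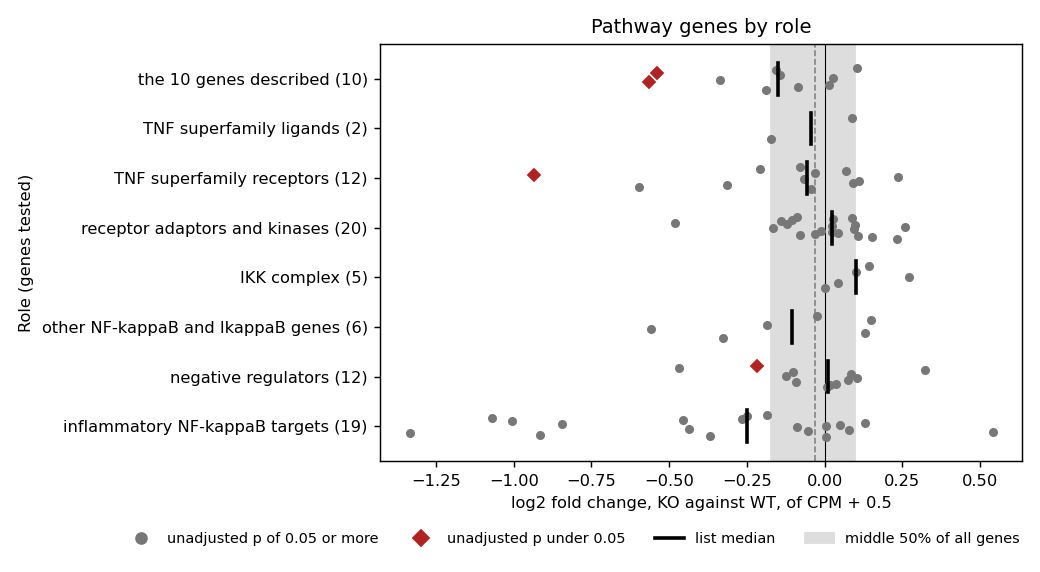
Log2 fold change of KO against WT for the 10 genes and the 76 other tested pathway genes by role, with red diamonds for an unadjusted p below 0.05, black bars for medians, a dashed line at the median of all genes and a grey band for the middle 50% of all genes. The grey band spans -0.17 to 0.10, the median of the IKK kinases (0.10) lies at its edge, and that of the inflammatory targets (-0.25) lies below it. The band is a spread of single genes and does not show how medians vary.

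The genes whose profile over the 6 libraries was most like that of the lower inhibitors were found by the root mean square difference of centred log2(CPM + 0.5) values. For Nfkbia these were Rangrf (0.108), Abt1 (0.111) and Rph3al (0.113), where the median distance of all genes tested was 0.475. Rph3al was at 0.841 CPM in KO2 and 0.881 CPM in KO3, the level of 3 reads in each. Rangrf was also low there, at 2.52 and 2.35 CPM, so counting error limits the likeness of both. For Tnfaip3 they were Lipg (0.0558), Igf2bp2 (0.0799) and Scoc (0.0800), against a median of 0.434. Nfkbia and Tnfaip3 were 0.257 apart from each other on this measure. The nearest genes were picked for their small distance among all genes tested. Their distances therefore cannot be set against that of 1 named pair, and they say nothing about the pathway. Lipg, which encodes endothelial lipase, was at 30.3, 23.2 and 18.5 CPM (WT) and 17.6, 18.5 and 14.1 CPM (KO), and ranked the 6 libraries as Tnfaip3 did.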

How the data were processed

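RNA-seq libraries of bitten ear skin (3 WT and 3 KO mice, assigned by their labels) were analysed. The authors aligned reads to mm10 with STAR (version 2.7.3a), quantified genes by expectation maximization in Partek Flow, divided by the library total and added an offset of 0.0001, and deposited the result as CPM. The 10 genes and the gene lists were chosen with earlier results of these data known.

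Depth was estimated from the CPM step of a single read. Between 91.8% and 92.6% of the values below 20 reads were whole to within 0.1 read. Every pair of libraries differed by more than sampling noise (chi-square of 8.26 to 42.4 per degree of freedom). Groups were compared on log2(CPM + 0.5), a scale that understates changes of low genes, after genes averaging under 1 CPM had been removed, which left 14306. The test was limma (version 3.58.1, lmFit and eBayes with a trend), two-sided, with Benjamini-Hochberg adjustment over these genes. It was also run on simulated counts with the same dispersion (spread beyond counting error) for every gene. The simulation held no shared shifts of genes between libraries of a genotype, such as those of the hair follicle markers here. For the authors' own comparison of these libraries, the model was not given in the sources used here. Named were the 10 genes, pathway genes at an unadjusted p below 0.05, the gene of highest CPM in each role, and the 3 genes nearest in profile to each of the 10 that reached that p. Positions are those of the deposited table, and exon lengths, over all transcripts of a gene, are from GENCODE M21. Alternatives were other pseudocounts, filters and scalings, limma without trend, limma voom, a replicate block, a hair follicle covariate, and each library left out; the ratios to Nfkb1 and Nfkb2 were added after seeing the data. Marker lists of cell types and the immediate early list were only summed and counted.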

Additional observations from a re-analysis of the deposited data

How the results depend on the processing

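Among refits of single named genes, 260 kept their sign and their side of an unadjusted p of 0.05, 25 moved above it, 2 moved below it and 16 changed sign, all of the last in genes above that p. Tnf (0.30) and Nfkb1 (0.013) did so with the hair follicle covariate, and the rest when 1 library was left out. The causes were not tested. Changes of filter, trend or replicate block kept the estimate of a gene and could not change its sign. Over the 6 fits that left out 1 library, log2 fold changes ranged from -0.67 to 0.42 for Tnf, -0.061 to 0.30 for Tnfrsf1b, -0.21 to 0.00055 for Nfkb1, -0.11 to 0.19 for Nfkb2, -0.13 to 0.17 for Rela, -0.19 to 0.31 for Tnfsf12, -0.039 to 0.22 for Ltbr and -0.026 to 0.082 for Tab2. The same fits gave 147 to 390 genes lower, 89 to 320 higher and 0 to 16 after adjustment, with 0 to 4 of the 10 genes lower, and 1 to 7 lower and 0 to 1 higher among other pathway genes. Of the 10 genes, 1 was lower with median-of-ratios rescaling or limma voom, and 0 with quantile normalization, without the trend or with the hair follicle covariate. With that covariate 587 genes were lower, 309 higher and 9 passed adjustment, and 1 pathway gene was lower and 1 higher. Quantile normalization gave 232 higher genes, and limma voom 1 gene after adjustment. Other pathway genes lower numbered 1 with median-of-ratios rescaling, quantile normalization or no trend. The ratio of Tnfaip3 to Nfkb1, chosen after seeing the data, differed by -0.46.

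Replicate numbers were shared by the groups only as numbers. The deviations of libraries with the same number correlated at 0.38, -0.31 and -0.22. With a replicate block 414 genes were lower, as were 5 other pathway genes, while 2 of the 10 genes were lower and 0 passed adjustment. Tnf could not be fitted with a filter at a mean of 5 CPM. Depth limited Tnf most, at 6 to 26 implied reads.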

Other observations

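A few NF-kappaB genes with a wide spread between libraries were named after their values were seen. Il1b, an inflammatory cytokine, was at 68.0 CPM in WT1, 11.8 in WT2 and 1.48 in WT3, against 20.3, 8.69 and 6.76 CPM in KO1, KO2 and KO3. Ptgs2, the inducible prostaglandin synthase, was at 134, 25.6 and 4.45 CPM (WT) and 29.4, 7.01 and 9.11 CPM (KO). For both genes the WT libraries enclosed the KO libraries. Bcl3, a nuclear member of the IkappaB family, was at 52.8, 17.7 and 8.08 CPM (WT) and 17.3, 25.8 and 8.52 CPM (KO).

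Marker lists differed as follows. Over all genes tested, 1.82% were lower and 1.06% higher in KO at an unadjusted p below 0.05, and 56.7% were negative. Of the adipocyte markers 4 of 10 were lower in KO at an unadjusted p below 0.05 and 10 were negative, with summed levels of 667 to 1051 (WT) and 392 to 904 CPM (KO). Of the skeletal muscle markers 3 of 10 were lower and 10 were negative, with sums of 4702 to 5907 and 2832 to 5658 CPM. Endothelial markers (1 of 8 lower, 6 negative) summed to 153 to 164 and 109 to 160 CPM. Fibroblast markers (1 of 6 higher, 4 positive) summed to 4466 to 5453 and 4556 to 6984 CPM. At that p 0 markers were called for macrophages, T cells, mast cells, neutrophils, keratinocytes and hair follicles. Sums were 583 to 1179 and 555 to 1113 CPM for macrophages. They were 138 to 210 and 192 to 206 CPM for T cells, and 108 to 166 and 88.0 to 173 CPM for mast cells. Log2 fold changes were positive for 14 of 15 hair follicle markers (median 2.61) and 7 of 8 keratinocyte markers. They were negative for 8 of 10 macrophage, 6 of 7 T cell, 3 of 6 mast cell and 5 of 8 neutrophil markers tested.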
